A study of Tupaia belangeri with 15 samples.

Results

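H1 horizontal cells of the tree shrew (TS, Tupaia belangeri) retina were described here from 103 nuclei of 119765. They were chosen by their counts of unique molecular identifiers (UMIs, single tagged RNA molecules). A nucleus with 201 to 5999 genes and under 5% mitochondrial UMIs was taken as H1 when it held LHX1 and at least one of ONECUT1 and ONECUT2, no UMI of ISL1, RBPMS or SLC17A6, and at most 1 UMI of CA10. ISL1 marks the other horizontal cell type and many amacrine and bipolar cells, RBPMS and SLC17A6 mark ganglion cells, and CA10 is a marker of TS bipolar cells. LHX1, ONECUT1, ONECUT2, MEGF11 and the other genes read from these nuclei are therefore set beside other nuclei with no test, since the nuclei were selected on their own RNA. Tests were kept for comparisons between stages.

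The nuclei came from frozen retinas of 15 TSs with no treatment named, 5 in each of the Infancy, Mature and Senile stages, sequenced with the 10x Genomics 3′ chemistry as 1 library per retina. Ages ran from 1.4 to 2.1 months in Infancy, from 24.96 to 36 months in the Mature stage and from 85.8 to 86.56 months in the Senile stage, and were not matched to single retinas here. Senile animals were bought from another institute, so that age and source cannot be told apart in any comparison with the senile stage. The headers of the files name Cell Ranger 6.1.2 for replicates 1 to 3 of Infancy and 1 and 2 of the other stages and 7.0.1 for the rest, and both versions occur in every stage. Each library held 13429873 to 58734300 UMIs, and 4231 to 9852 nuclei per retina passed the limits.

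Horizontal cells are inhibitory interneurons that lie beneath the photoreceptors and take glutamate from their terminals. Through lateral contacts they feed back onto cones and rods and forward onto bipolar cells, which sharpens contrast and adjusts the retina to the mean light level. Many mammals have an axonless A type and an axon-bearing B type. Single-cell studies call the LHX1 type H1 and the ISL1 type H2. ONECUT1 and ONECUT2 are transcription factors needed for horizontal cells to form, and LHX1 is needed for their placement and shape. MEGF11 and its relative MEGF10 are surface receptors by which horizontal and starburst amacrine cells of mice keep an even spacing from cells of their own kind.

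The rule rested on few molecules per nucleus. LHX1 had 1 UMI in 83 of the 103 nuclei, 2 UMIs in 16 and 3 UMIs in 4. All 3 transcription factors were present in 68 nuclei, LHX1 and ONECUT1 alone in 30, and LHX1 and ONECUT2 alone in 5. An H1 nucleus held 868 to 14389 UMIs with a median of 4765, and 569 to 4065 genes with a median of 1959. Mitochondrial UMIs reached 1.04% at most. No barcode sequence was an H1 nucleus in more than 1 library, while 1793 of 118622 barcode sequences occurred in 2 or more libraries among all nuclei.

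The nuclei just outside the rule give a view of what it kept and left out. In the H1 nuclei with 2 UMIs of the 3 factors in all, which only just entered, MEGF11 stood at 797 CPM (UMIs of a gene per 1000000 UMIs; 7 nuclei). It stood at 905 CPM with 3 or 4 UMIs (25 nuclei) and at 1013 CPM with 5 or more (71 nuclei). Outside, 369 nuclei held both ONECUT genes with LHX1 and ISL1 at 0, and MEGF11 in them stood at 986 CPM (95% interval 937 to 1037). These ONECUT-pair nuclei outnumbered the H1 nuclei, and their median depth was lower, at 3369 UMIs. The 24 nuclei with LHX1 and neither ONECUT gene stood at 149 CPM (79.2 to 254). With CA10 at 2 UMIs, or at 3 or more, MEGF11 was at 816 and 782 CPM (15 nuclei each). The 2 nuclei left out for ISL1 alone held 20 UMIs of MEGF11, or 1692 CPM (1034 to 2614). Such intervals cover counting error only.

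The label was checked against markers of the retinal classes. The rule itself sets LHX1, ONECUT1 and ONECUT2. Of the horizontal cell markers fixed for the label, MEGF11 alone was not part of the rule, and it stood at 989 CPM in H1 nuclei and 60.2 CPM in all other nuclei. Summed over their lists, 8 amacrine markers stood at 221 CPM in H1 against 1273 CPM elsewhere, 7 bipolar markers at 84.2 against 391, 8 ganglion cell markers, of which the rule sets RBPMS and SLC17A6 to 0, at 19.6 against 438 and 6 Müller glia markers at 112 against 608 CPM. Astrocyte markers stood at 33.3 against 188 CPM, vascular markers, with 2 UMIs in H1, both in Senile 5, at 3.92 against 65.7 CPM, microglial markers at 11.8 against 28.3 CPM and oligodendrocyte markers, with 1 UMI in H1, at 1.96 against 5.49 CPM. Pigment epithelial markers were not lower, at 9.79 against 8.67 CPM, with 4 of their 5 UMIs from Infancy 4. The 8 cone markers reached 494 CPM in H1, 1999 CPM in all other nuclei and 6591 CPM in cones. The 8 rod markers reached 223 against 230 CPM, and 135 CPM without Infancy 1, which held 47 of their 114 UMIs. The amacrine list stood at 168 CPM without Senile 5, which held 39 of its 113 UMIs.

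A nucleus was called mixed when it held at least 2 cone or rod markers, 2 bipolar markers or 2 Müller glia markers. By this, 45 of the 103 H1 nuclei (43.7%) were mixed, beside 132 of the 369 ONECUT-pair nuclei. Mixed H1 nuclei had a median of 5999 UMIs and the other H1 nuclei 3963.5. In the 58 others the cone list stood at 142 CPM, the rod list at 17.7 CPM and the horizontal list at 2549 CPM. Over retinas the cone list in H1 spanned 0 to 1022 CPM in Infancy, 157 to 1978 CPM in Mature and 0 to 569 CPM in Senile. The rod list spanned 0 to 3206 CPM in Infancy, 0 to 95.0 CPM in Mature and 42.7 to 114 CPM in Senile. Without the mixed nuclei MEGF11 stood at 1049 CPM, TRPM3 at 13140 CPM and TNR at 6329 CPM, near the 989, 12480 and 6617 CPM of all H1 nuclei. KCNB2, a potassium channel gene that is high in cones, stood at 124 CPM without them and 358 CPM with them. No nucleus was removed by a doublet score.

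One retina stood apart on genes that are otherwise low in H1. In Senile 4, 10 genes that are low in H1 elsewhere (RALYL, MDGA2, CNTN5, RBFOX1, SNTG1, FGF14, DPP10, SASH1, PPFIA2 and IL1RAPL1) summed to 19910 CPM in H1, against 0 to 2756 CPM in the other 12 retinas with at least 3 H1 nuclei and 9686 to 16250 CPM in the other nuclei of those 13 retinas. These are the 10 named genes lowest against the ISL1-rule nuclei described below. They needed a mean of at least 100 CPM over the retinas, in which Senile 4 counts. Pooled over H1 nuclei, DPP10, SASH1 and IL1RAPL1 stood at 80.3, 90.1 and 60.7 CPM, and at 51.8, 73.8 and 49.9 CPM without Senile 4. The choice of the list thus favours genes that are high in Senile 4, and its sum is a description. The 3 H1 nuclei of Senile 4 held 1819, 2094 and 5178 UMIs, of which 0%, 0.764% and 3.19% came from these genes. In the other 100 H1 nuclei the share ran from 0% to 0.969%. The largest of the 3 nuclei was mixed, had no ONECUT1 or MEGF11 UMI and 45 UMIs of TRPM3. Results that turn on Senile 4 are given with and without it.

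The first comparison asked whether the abundance of H1 nuclei differed between stages. H1 nuclei made up 0.086% of all nuclei. The 5 Infancy retinas held 6, 3, 3, 13 and 9 H1 nuclei, which were 0.0782%, 0.0336%, 0.0305%, 0.148% and 0.128% of their nuclei. The 5 Mature retinas held 8, 4, 21, 7 and 8, or 0.0972%, 0.0422%, 0.233%, 0.0738% and 0.189%. The 5 Senile retinas held 1, 0, 3, 3 and 14, or 0.0132%, 0%, 0.0566%, 0.0419% and 0.146%. The stages overlapped, with a low and a high retina in each. The 0 of 7451 nuclei in Senile 2 allows a share of up to 0.0403% when a count of 0 is taken to allow 3 nuclei, and the upper end of its 95% Wilson interval is 0.0515%.

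The mean share was 0.0836% ± 0.0535 in Infancy, 0.127% ± 0.0806 in Mature and 0.0516% ± 0.0576 in Senile (SD, n = 5 each). Mature minus Infancy was 0.0434 percentage points (2-sided exact permutation test, p = 0.341), Senile minus Infancy -0.0320 (exact permutation p = 0.365) and Senile minus Mature -0.0754 (exact permutation p = 0.135), with an adjusted p of 0.365 for each. The differences were thus not larger than the spread between retinas allows to call, where the smallest p that 5 against 5 can give is 0.00794. Each retina stands for a separate animal.

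The share moved with depth and with the program version. It averaged 0.0474% in Infancy, 0.0697% in Mature and 0.0066% in Senile among the retinas counted with version 6.1.2, and 0.138%, 0.165% and 0.0816% among those counted with 7.0.1. The median UMIs of an H1 nucleus were 1669 to 2439 per retina under 6.1.2 and 2094 to 7856 under 7.0.1. Both versions put the stages in the same order. When stages were permuted within versions, Mature minus Infancy was 0.0248 percentage points (2-sided exact permutation p = 0.44, adjusted 0.44), Senile minus Infancy -0.0486 (exact permutation p = 0.07, adjusted 0.105) and Senile minus Mature -0.0734 (exact permutation p = 0.0667, adjusted 0.105). When each nucleus was thinned to 1000 UMIs, 32 nuclei met the rule, and the means were 0.0240%, 0.0395% and 0.0232% in Infancy, Mature and Senile. The order within version 6.1.2 then turned, with 0.0217% in Infancy and 0.0184% in Mature. Within 7.0.1 it turned too, with Senile at 0.0341% above Infancy at 0.0274%, and Mature at 0.0536%.

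**Figure D1:**
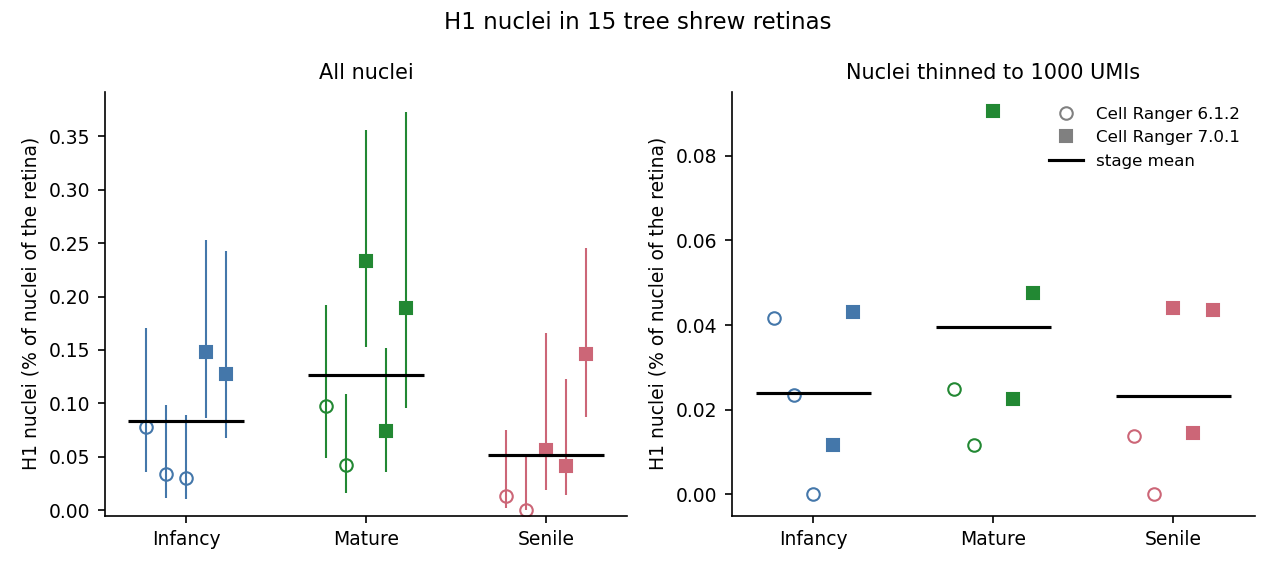
Share of H1 nuclei among all nuclei of each retina, in percent, for the 5 retinas of each stage. The left panel uses all UMIs with 95% Wilson intervals, the right panel nuclei thinned to 1000 UMIs; open circles are Cell Ranger 6.1.2, squares 7.0.1, and black bars the stage means of 0.0836%, 0.127% and 0.0516% (left). The highest retina is Mature 3 at 0.233%, and the stages overlap in both panels.

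The depth of an H1 nucleus, which bears on whether a single LHX1 molecule is read, was compared over the 13 retinas with at least 3 H1 nuclei (Infancy 1 to 5, Mature 1 to 5 and Senile 3 to 5). The log2 of the median UMIs averaged 11.61 ± 0.91 in Infancy, 12.01 ± 0.78 in Mature and 11.53 ± 0.61 in Senile (SD, n = 5, 5 and 3), and no pair of stages passed the exact permutation test (adjusted p 0.702, 0.839 and 0.702 in the order used above). With 5 against 3 retinas only 56 divisions of the retinas exist, which limits how small p can be in a senile comparison. The median H1 nucleus held more UMIs than the median of the other nuclei in 9 of these 13 retinas.

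H1 nuclei were also set beside their counterparts. The mirror rule, with ISL1 in place of LHX1 and LHX1 at 0, found 265 nuclei. Their genes went against an H2 label. CHAT or SLC5A7, the enzyme of acetylcholine synthesis and the choline transporter of starburst amacrine cells, were present in 166, and at least 2 UMIs of GRM8, a metabotropic receptor on the amacrine list, in 204, while both ONECUT genes were present in only 39. Of the H1 nuclei 3 held CHAT or SLC5A7. They are called ISL1-rule nuclei below and are given no cell type. H1 made up 28.1% ± 6.16 of H1 and ISL1-rule nuclei together in Infancy (SD, n = 5), 33.9% ± 7.35 in Mature (n = 5) and 19.0% ± 8.42 in Senile (n = 4, without Senile 2, which held 6 such nuclei in all).

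Senile minus Mature was -14.9 percentage points (2-sided exact permutation p = 0.0318, adjusted 0.0952, over 126 divisions of the retinas). Senile minus Infancy was -9.08 (exact permutation p = 0.151, adjusted 0.214) and Mature minus Infancy 5.80 (exact permutation p = 0.214, adjusted 0.214). None passed after adjustment. Within version 7.0.1 the means were 27.3%, 33.7% and 22.9%, and within 6.1.2 they were 28.5%, 34.1% and, for the single Senile retina with enough nuclei, 7.14%. Without Senile 4, Senile minus Mature was -14.8 (exact permutation p = 0.0714, adjusted 0.214).

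The RNA of H1 nuclei was then described gene by gene. Counts were summed over the H1 nuclei of a retina and divided by their sum, which gives CPM. A retina had 5312 to 113017 H1 UMIs, so that in the shallowest retina 1 UMI was 188 CPM. The counts come from the 3′ ends of RNAs and were not divided by length, so genes are compared across nuclei and not with each other. Among the 1491 features with a mean of at least 100 CPM in H1, 141 (9.46%) were above all other nuclei in every one of the 13 retinas and 75 (5.03%) were below. The 141 comprised 111 named genes, 13 numbered copies of genes, 10 LINC features and 7 antisense features, and 85 of them were at least 4-fold higher. Without Senile 4, 173 features (11.6%) were above and 106 (7.11%) below. These counts use the contrast by which the nuclei were chosen, and the limit of 100 CPM was set in H1 and favours features that are high there, so they are a description.

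Among the transcription factors, LHX1 stood at 249 CPM in H1 and 0.238 CPM elsewhere, ONECUT1 at 785 against 18.1 CPM and ONECUT2 at 513 against 13.1 CPM, as the rule sets them. LHX1 was above in 13 of 13 retinas, ONECUT1 in 13 and ONECUT2 in 11, with 0 UMIs in Infancy 2 and 3. ONECUT2 is also listed as a numbered copy, ONECUT2li1, at 748 CPM, so that reads of this factor can be divided between the entries. The rule did not name the following factors. ONECUT3, the third member of the family, stood at 50.9 against 0.308 CPM. PROX1, which is needed for horizontal cells to arise from progenitors, stood at 560 against 141 CPM and was above in 13 retinas. TFAP2B, a factor of horizontal and amacrine cells, stood at 339 against 80.6 CPM, and its relative TFAP2A at 96.0 against 72.9 CPM.

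RORB, a nuclear receptor of photoreceptor and horizontal cell development, stood at 3118 against 1416 CPM and was above in every retina. PAX6 differed little, at 376 against 349 CPM, with 8 of 13 retinas above. FOXN4 and PTF1A, which act in the progenitors of horizontal cells, had no UMI in H1, and SALL3 is listed at 0 in every nucleus. Of the 9 regulators that the rule did not use, 4 reached 100 CPM in H1, of which 2, PROX1 and RORB, were above all other nuclei in every retina and none below, beside the 9.46% above and 5.03% below over all features.

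MEGF11 was present in 95 of 103 H1 nuclei, or 92.2% (95% Wilson interval 85.4 to 96.0), in 68.3% of ISL1-rule nuclei and in 5.61% of the 24355 nuclei called cones. Median depths were 4765 UMIs for H1 nuclei and 1615 to 8627.5 UMIs for cones of a retina. The level of MEGF11 in the Infancy retinas was 1091, 829, 941, 725 and 994 CPM. It was 1394, 1235, 1186, 692 and 1250 CPM in the Mature retinas and 1826, 110 and 711 CPM in Senile 3, 4 and 5. The highest and the lowest value both came from senile retinas, and that of Senile 4 is a single UMI. All 13 values were above those of the other nuclei of the same retinas, which spanned 38.3 to 88.5 CPM.

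Against the ISL1-rule nuclei the pair of MEGF genes behaved unlike each other. MEGF11 stood at 989 CPM in H1 and 841 CPM in ISL1-rule nuclei, with H1 above in 7 of 13 retinas. MEGF10 stood at 403 CPM in H1 and 58.6 CPM in ISL1-rule nuclei, with H1 above in 13 of 13 retinas. MEGF10 was present in 72.8% of H1 nuclei, in 23.0% of ISL1-rule nuclei and in 6.19% of cones.

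Of the 30 genes of mosaic spacing and adhesion, 16 reached 100 CPM in H1, 6 were above all other nuclei in every retina and 2 below, beside 9.46% above and 5.03% below over all features. Without Senile 4, 8 were above and 3 below, beside 11.6% and 7.11%. Those above in all 13 included MEGF11, MEGF10, CADM1 (1445 against 700 CPM, an adhesion molecule of synapses), NCAM1, a homophilic adhesion molecule, at 2317 against 686 CPM, and TENM2, a teneurin that pairs synaptic partners, at 3374 against 1526 CPM. TENM2 was higher still in ISL1-rule nuclei, at 6155 CPM. Those below in all 13 were CADM2, a relative of CADM1, at 535 against 3835 CPM and NEGR1, an adhesion molecule of the IgLON family, at 652 against 2473 CPM. NRXN3 reached 6649 CPM in H1, near the 6732 CPM of all other nuclei.

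A channel and a matrix gene were far above the other nuclei. TRPM3, a heat- and steroid-gated cation channel, stood at 9892, 10940, 10540, 11300 and 12550 CPM in Infancy, at 13170, 10260, 13650, 10700 and 14320 CPM in Mature and at 10040, 11550 and 12350 CPM in Senile 3 to 5. All of these values lay above the 882 to 2754 CPM of the other nuclei. In ISL1-rule nuclei it stood at 1608 CPM. TNR, the matrix protein tenascin-R of perineuronal nets, stood at 5048, 5140, 6777, 5770 and 5876 CPM in Infancy, at 7419, 7887, 6265, 5004 and 9982 CPM in Mature and at 9587, 2970 and 6202 CPM in Senile 3 to 5, against 168 to 334 CPM in the other nuclei. It was present in all 103 H1 nuclei, in 75.8% of ISL1-rule nuclei and in 16.5% of cones.

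Other genes followed the same pattern across the 13 retinas. PCDH9, a protocadherin, stood at 8039 against 1434 CPM, TMEFF2, a transmembrane protein with follistatin domains, at 4821 against 282 CPM and TLL1, a tolloid-like protease that cleaves matrix and BMP inhibitors, at 2742 against 114 CPM. THSD7B, a thrombospondin-domain gene, stood at 1618 against 24.3 CPM, at 107 CPM in ISL1-rule nuclei and at 4.39 CPM in cones, and was present in 95.1% of H1 nuclei and 1.45% of cones. Its neighbours in name, THSD7Bli1 and LINC-THSD7B-4, stood at 917 and 2107 CPM, and how reads are divided among the 3 entries is uncertain.

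TPH2, the neuronal enzyme that starts serotonin synthesis, stood at 476 CPM in H1, 405 CPM in ONECUT-pair nuclei, 35.3 CPM in ISL1-rule nuclei and 7.43 CPM in all other nuclei. It was present in 76.7% of H1 nuclei and 1.04% of cones. OPRK1, the kappa opioid receptor, stood at 409 against 8.25 CPM and was above in 12 of 13 retinas, with no UMI in Senile 4. TRPC4, a receptor-operated cation channel, stood at 967 against 31.1 CPM, STAC, an adaptor of L-type calcium channels, at 732 against 17.2 CPM, and GNA14, a G protein alpha subunit, at 550 against 11.9 CPM, each above in all 13 retinas.

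Of the 20 named genes with the highest ratio to all other nuclei, 8 were above in every retina: LHX1, THSD7B, TPH2, CFAP58, ONECUT1, STAC, GNA14 and TRPC4. CRYBA4, CRYAA, CRYGC and CRYBB1 also entered these 20 by their ratio, but they were above in only 4, 2, 1 and 1 retinas. They encode lens crystallins.

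**Figure D2:**
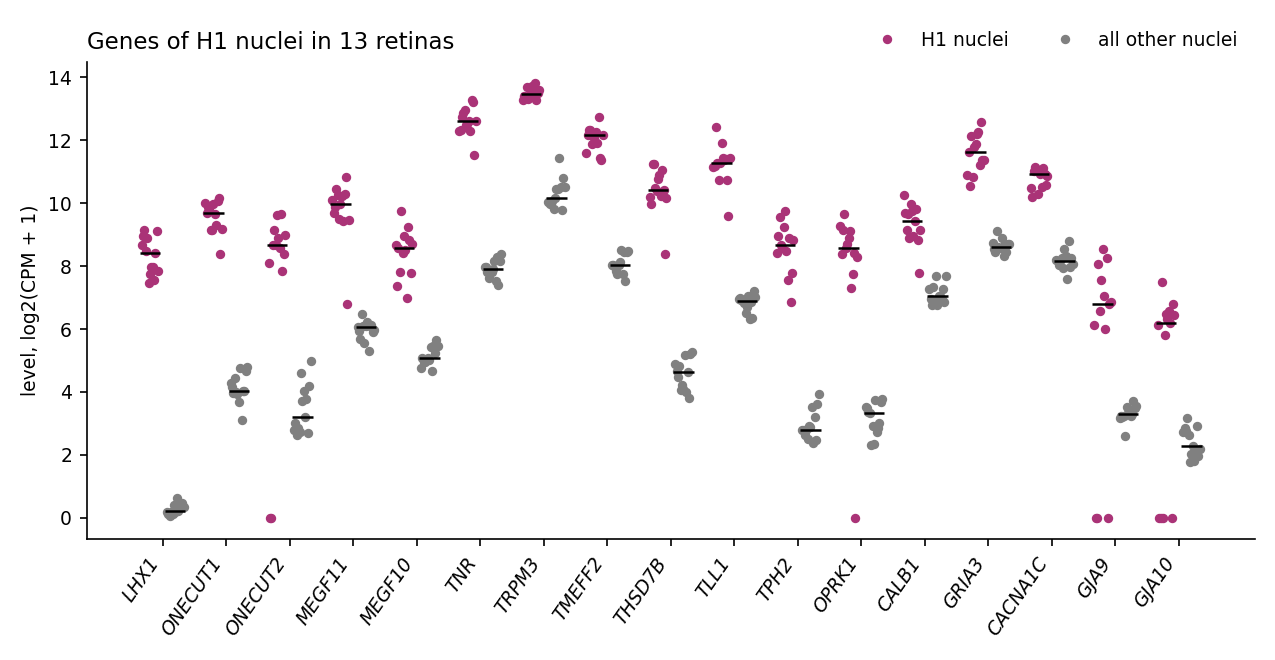
Level of 17 genes in H1 nuclei and in all other nuclei, as log2(CPM + 1), 1 point for each of the 13 retinas with at least 3 H1 nuclei and a bar at the median. TRPM3 and TNR lie apart from the other nuclei in all 13 retinas, whereas points at 0 mark retinas without a UMI of a gene, such as GJA9.

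Glutamate receptors receive the signal of photoreceptors at horizontal cell tips, mainly through AMPA receptors. GRIA3, an AMPA receptor subunit, was at 1910, 3150, 1506, 3517 and 3763 CPM in Infancy, at 4496, 1806, 4672, 4878 and 2384 CPM in Mature and at 6163, 2640 and 2674 CPM in Senile 3 to 5. Other nuclei of these retinas held 317 to 558 CPM, below every H1 value. GRIA4 stood at 2084 against 1053 CPM and was above in 13 retinas too. GRIA2, the subunit that limits calcium entry, stood at 145 against 226 CPM, and GRIA1 had 1 UMI in H1.

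GRIP1, a scaffold that binds AMPA receptors, stood at 5147 against 1112 CPM and was above in every retina. GRIN2A, a subunit of NMDA receptors, stood at 39.2 against 409 CPM, and at 20.4 CPM without Senile 5. GRM7, a presynaptic metabotropic receptor, stood at 114 against 1065 CPM. Senile 4 held 38 of its 58 UMIs, at 4180 CPM, and without that retina GRM7 stood at 39.9 CPM. Of 22 measured glutamate receptor genes, 6 reached a mean of 100 CPM (5 without Senile 4) and 2 of these, GRIA3 and GRIA4, were above all other nuclei in every retina and none below, beside 9.46% and 5.03% over all features.

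The 26 measured genes of the GABA and glycine list summed to 844 CPM in H1 and 2542 CPM in all other nuclei. GAD2 and SLC32A1, the synthetic enzyme and the vesicular carrier, are listed at 0 in every nucleus of the series, and GAD1 had 1 UMI in H1 and 1.41 CPM elsewhere. HSP90AA1 and HSPA8, which cells in general use, are likewise listed at 0 in every nucleus, so a 0 in these tables says only that a gene was not counted. GABRA3, a GABA receptor subunit, stood at 121 against 36.7 CPM (12 of 13 retinas above). SLC12A5, which exports chloride, stood at 62.7 against 344 CPM, and its relative SLC12A7 at 110 against 5.13 CPM. Of the 4 genes of the list at 100 CPM (3 without Senile 4), 0 were above and 0 below all other nuclei in every retina, beside 9.46% and 5.03% over all features. Without Senile 4 GABRA3 was above in all 12.

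Connexins couple horizontal cells to each other and form the hemichannels of their dendritic tips. GJA10, the connexin of horizontal cell coupling in mice, stood at 76.4 against 4.42 CPM, and was present in 30.1% of H1 nuclei (22.1 to 39.5) and 3.19% of cones. GJA9, a close relative, stood at 182 against 9.05 CPM, in 46.6% of H1 nuclei (37.3 to 56.2) and 4.58% of cones. GJA9 had 68.2, 0, 0, 187 and 373 CPM in Infancy, 270, 95.0, 133, 62.9 and 302 CPM in Mature and 0, 110 and 114 CPM in Senile 3 to 5. The 3 retinas at 0 held 3 H1 nuclei each. GJD2, the connexin of cones and amacrine cells, had 4 UMIs in H1, or 7.83 against 74.7 CPM. GJA9 was the only one of 12 gap junction genes that reached 100 CPM in H1.

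Horizontal cell feedback is thought to involve protons beside current through hemichannels. SLC4A3, an anion exchanger that moves bicarbonate, stood at 253 against 24.1 CPM and was above in all 13 retinas, the only one above among the 5 genes of proton and bicarbonate handling at 100 CPM. SLC4A10 and SLC4A7, which bring bicarbonate into cells, were below in all 13, at 364 against 616 and 176 against 329 CPM. Over all features 9.46% were above and 5.03% below. CA8, a carbonic anhydrase relative without catalytic activity, stood at 60.7 against 2.64 CPM.

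Among calcium genes, CACNA1C, the pore of an L-type calcium channel, stood at 1433, 1161, 2071, 1242 and 2077 CPM in Infancy, at 2293, 2186, 1955, 1448 and 2212 CPM in Mature and at 1940, 1540 and 1878 CPM in Senile 3 to 5. Other nuclei held 191 to 441 CPM, below every H1 value. ITPR1, the calcium release channel of internal stores, was above in all retinas too, at 1061 against 179 CPM. CALB1, the calcium buffer calbindin by which horizontal cells are often stained, stood at 740 against 147 CPM. CACNA2D1, an auxiliary channel subunit, was below in all 13 retinas (259 against 1029 CPM), as was ATP2B1, a calcium pump (214 against 629 CPM), so that 3 were above and 2 below of the 9 genes of this list at 100 CPM (8 without Senile 4), beside 9.46% and 5.03% over all features.

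Of 10 potassium, sodium and HCN channel genes at 100 CPM (8 without Senile 4), 2 were above and 4 below all other nuclei in every retina, beside 9.46% above and 5.03% below over all features. KCNH7, an ERG-type potassium channel, stood at 3629 against 1108 CPM and KCNJ3, a G-protein-gated inward rectifier, at 1811 against 422 CPM. Those below included KCNB2 at 358 against 2751 CPM, with 8374 CPM in cones, KCNMA1 at 121 against 1137 CPM and KCNIP4, a potassium channel partner, at 194 against 1275 CPM. Single retinas carried much of 2 of these levels, since KCNB2 stood at 205 CPM without Infancy 4 and KCNIP4 at 47.7 CPM without Senile 5, which held 78 of its 99 UMIs.

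Of 35 axon guidance genes 12 reached 100 CPM (11 without Senile 4), of which 6 were above all other nuclei in every retina and none below, with or without that retina, beside the same 9.46% and 5.03% over all features. EPHB1, EPHA4 and EPHA7, receptors of ephrins, stood at 932, 449 and 917 CPM against 44.2, 44.9 and 165 CPM. SEMA6A and its receptor PLXNA2, a transmembrane guidance pair, stood at 1065 and 995 CPM against 103 and 138 CPM. SEMA5A, which keeps neurites out of the outer retina in mice, stood at 723 against 127 CPM. ROBO2, a receptor of SLIT ligands, stood at 2753 against 2451 CPM and was above in only 8 of 13 retinas.

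The remaining lists are given beside the 9.46% of all features above and 5.03% below. The developmental list had 1 above and 1 below of 6 at 100 CPM (5 without Senile 4), with AUTS2, a regulator of neuron development, at 4735 against 2195 CPM and the transcription factor TCF4 at 174 against 682 CPM. The cytoskeleton list had 1 above and 2 below of 8, with ANK2, an ankyrin of axons and dendrites, at 1251 against 411 CPM and ANK3, the ankyrin of the axon initial segment, below in all 13 retinas at 386 against 1391 CPM. NEFH and INA, neurofilament proteins, stood at 41.1 against 8.27 and 161 against 64.0 CPM. Of 21 measured heat shock and immediate early genes 2 reached 100 CPM (1 without Senile 4), and of 11 senescence genes none did.

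Genes that were low in H1 gave the other side of the pattern. RALYL, an RNA-binding protein, stood at 237 against 3239 CPM in all other nuclei and 9771 CPM in ISL1-rule nuclei, and MDGA2, an adhesion protein of synapses, at 223 against 2998 CPM. RBFOX1, a neuronal splicing factor, stood at 133 against 1279 CPM and 5852 CPM in ISL1-rule nuclei, and at 85.7 CPM in H1 without Senile 4, which held 25 of its 68 UMIs. The highest H1 values of these genes, 3410 CPM for RALYL and 3300 CPM for MDGA2, were those of Senile 4, and RALYL and MDGA2 were still below the other nuclei in all 13 retinas.

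**Figure D3:**
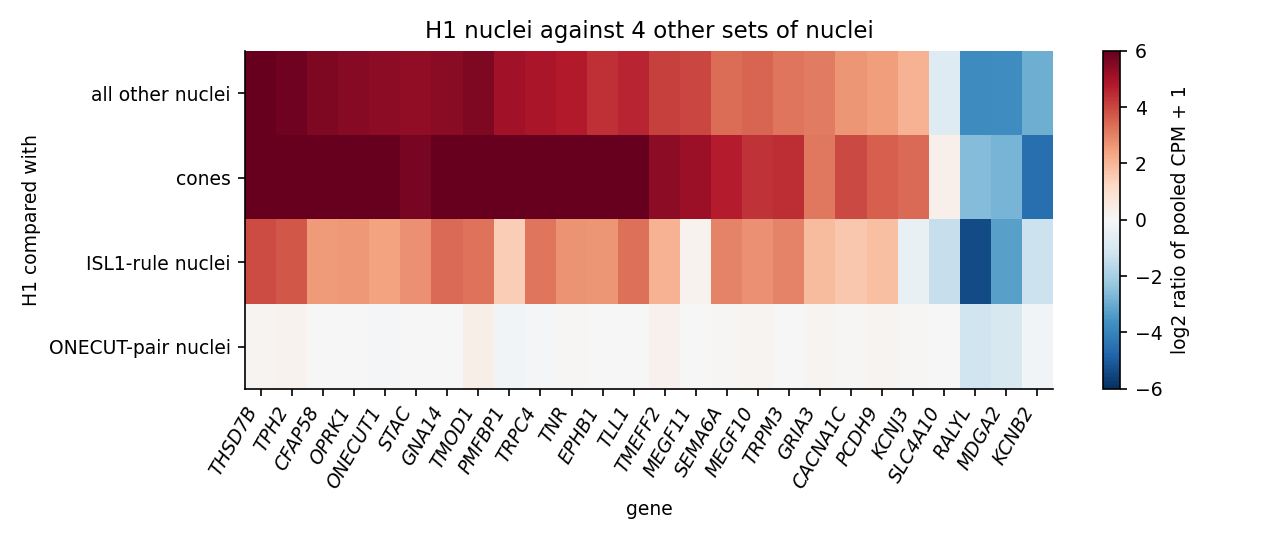
Log2 ratio of pooled CPM + 1 in H1 nuclei to that in all other nuclei, cones, ISL1-rule nuclei and ONECUT-pair nuclei, for 26 genes, with colours ending at -6 and 6. Against the ONECUT-pair nuclei the genes stay close to 0, with RALYL (237 against 537 CPM) and MDGA2 (223 against 430 CPM) farthest below, and against ISL1-rule nuclei MEGF11 is near 0 and MEGF10 is high.

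The closest nuclei were those with both ONECUT genes and no LHX1. In the 12 retinas with at least 10 of them, LHX1 alone, which the rule fixes, was above these nuclei in every retina (1 of 1491 features, 0.0671%), and no feature was below in every retina (0%). The median log2 ratio over the 1491 features was 0.09. TRPM3 stood at 12480 CPM in H1 and 12230 CPM in ONECUT-pair nuclei, TNR at 6617 and 6338 CPM, TPH2 at 476 and 405 CPM and MEGF11 at 989 and 986 CPM. RALYL was lower in H1, at 237 CPM against 537 CPM in ONECUT-pair nuclei, though not in every retina. Against the ISL1-rule nuclei, 72 features (4.83%) were above and 41 (2.75%) below in every retina. TLL1 was above in all 13, at 2742 against 280 CPM. INSYN2B, MDGA1 and GNA14 were above in 12 of 13, at 386 against 28.1, 268 against 11.4 and 550 against 51.4 CPM.

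The last comparison asked which genes changed with stage in H1 nuclei. Sums per retina were fitted for 354 features in 13 retinas with edgeR's quasi-likelihood test and Benjamini-Hochberg adjustment. No feature passed an adjusted p of 0.05 for Mature against Infancy (0 of 354, 0%), Senile against Infancy (0%) or Senile against Mature (0%). At an unadjusted p of 0.05 there were 24 (6.78%), 33 (9.32%) and 17 (4.8%). DESeq2 called 0, 0 and 0, with 24, 36 and 18 at an unadjusted p of 0.05. In data simulated for Mature against Infancy (422 genes run), the fit found 21 of 23 tested 4-fold changes (91.3%) and 3 of 10 tested 2-fold changes (30%), with 2 false calls. The median log2 fold change over all 354 features was 0.07, 0.04 and -0.04.

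MEGF11, which the rule did not use, was measured with a wide error. Senile minus Infancy on the log2 scale was -0.10 ± 0.44 for MEGF11 (approximate SE, adjusted p = 0.984 by edgeR's quasi-likelihood test) and 0.33 without Senile 4 (adjusted p = 0.997). Each SE of a fold change was derived from the fold change and the F statistic of its test, and is least certain for changes near 0. The levels of LHX1, ONECUT1 and ONECUT2 are set by the choice of nuclei in every stage, and their stage differences are not given. Genes with more UMIs were measured more closely, at 0.09 ± 0.15 for TRPM3 and 0.15 ± 0.26 for TNR, which was 0.49 without Senile 4. TRPM3 averaged 11040 ± 991 CPM in Infancy, 12420 ± 1824 in Mature and 11310 ± 1173 in Senile (SD, n = 5, 5 and 3), so that its stages differed by about the spread between retinas.

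DGKH, a diacylglycerol kinase that ends lipid signalling, had the lowest adjusted p of the 3 comparisons. It stood at 1705, 2653, 1694, 2033 and 2752 CPM in Infancy, at 2473, 2471, 2628, 2895 and 3217 CPM in Mature and at 1370, 880 and 1437 CPM in Senile 3, 4 and 5. All 3 senile values were below all 10 others. In ONECUT-pair nuclei DGKH stood at 1713, 1893 and 1758 CPM in Senile 3, 4 and 5. It spanned 1627 to 2846 CPM there in Infancy, which overlaps the senile values, and 2050 to 2724 CPM in Mature. For H1 nuclei, Senile minus Mature was -1.06 ± 0.24 on the log2 scale, with an adjusted p of 0.119 by edgeR's quasi-likelihood test. It was -0.90 without Senile 4 (adjusted p = 0.997) and -1.03 without Infancy 5 (adjusted p = 0.0488), the only omitted retina at which it passed. DGKH was named after its values were seen.

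CALB1 stood at 1228, 829, 565, 1011 and 870 CPM in Infancy, at 809, 475, 496, 692 and 891 CPM in Mature and at 457, 220 and 569 CPM in Senile 3 to 5. Only Infancy 3, at 565 CPM, lay below a senile value among the infants. Senile minus Infancy was -1.01 ± 0.37 (edgeR adjusted p = 0.313) and -0.76 without Senile 4 (adjusted p = 0.917). TPH2 stood at 341, 497, 753, 605 and 852 CPM in Infancy, at 405, 380, 354, 189 and 474 CPM in Mature and at 114, 220 and 455 CPM in Senile 3 to 5. The stages overlapped, and neither Mature minus Infancy (-0.82 ± 0.35, edgeR adjusted p = 0.635) nor Senile minus Infancy (-0.90 ± 0.43, edgeR adjusted p = 0.511) passed. In ONECUT-pair nuclei TPH2 spanned 179.5 to 511.5 CPM in Infancy and 244.9 to 524.7 CPM in Mature. It spanned 369.9 to 530.5 CPM there in Senile 3 to 5, with 5 such nuclei in Senile 3.

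By list, 0 members were called in each of the 13 lists and 3 comparisons, against 0% of all features. The largest number tested was 13 of the 30 mosaic and adhesion genes, with a median log2 fold change of 0.05 for Mature against Infancy, 0.001 for Senile against Infancy and -0.04 for Senile against Mature. The 8 axon guidance genes tested had medians of 0.04, 0.04 and -0.004 in the same order, the 3 regulators outside the rule (PROX1, PAX6 and RORB) 0.52, -0.04 and -0.33, the 4 developmental genes 0.01, -0.06 and -0.12 and the 3 calcium genes -0.47, -0.28 and -0.09. The 3 glutamate receptor genes had medians of 0.27, 0.40 and 0.06, the 3 cytoskeleton genes 0.27, 0.46 and 0.14 and the 2 channel genes 0.14, -0.05 and -0.20. The 1 gene of proton and bicarbonate handling stood at 0.26, -0.001 and -0.26. No gene of the GABA, gap junction, heat shock or senescence lists passed the filter on low counts, so none was tested in this fit.

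Whether a stage change in H1 differed from that of the other nuclei of the same retina was tested with a term for each retina. In the joint test of the 3 stages no feature passed (0 of 354, 0%), and 38 had an unadjusted p under 0.05. The lowest adjusted p was 0.0933 for FTH1li4, a numbered copy of ferritin heavy chain, followed by 0.11 for NCAPD2, a condensin subunit. Between Senile and Infancy alone, their log2 differences were -2.28 and -1.83, each with an adjusted p of 0.0519 by edgeR, the lowest of the single comparisons. TPH2 had an adjusted p of 0.291 in the joint test and 0.118 between Senile and Infancy (-1.74), and DGKH 0.31 in the joint test. The other nuclei here include the ONECUT-pair nuclei, in which the senile TPH2 levels lay within or above the Infancy range.

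**Figure D4:**
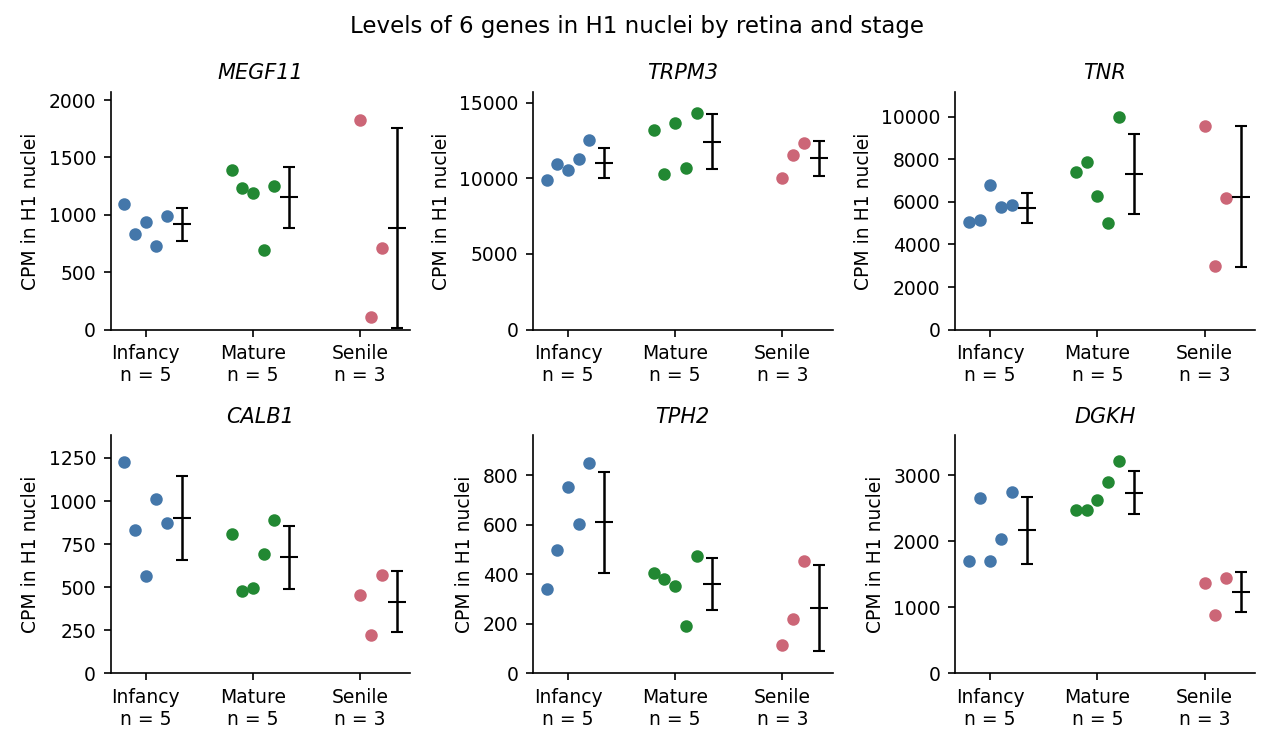
CPM of MEGF11, TRPM3, TNR, CALB1, TPH2 and DGKH in H1 nuclei, 1 point per retina for Infancy (n = 5), Mature (n = 5) and Senile (n = 3), with bars at the mean ± SD. DGKH lies between 880 and 1437 CPM in the senile retinas, below the 1694 CPM of the lowest other retina, while the stages overlap for the other 5 genes.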

How the data were processed

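Per the labels, nuclei of frozen TS retinas were processed with a 10x Genomics 3′ protocol. The authors ran Cell Ranger on the TS_3.0 genome and deposited raw UMI counts per feature and barcode, without normalization. The file headers name versions 6.1.2 and 7.0.1, and the submitters' processing notes 5.0.1 and 7.0.1. Whether intronic reads were counted is not given in the sources used here.

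Nuclei were chosen by the rule above. Cones had 3 or more cone markers and none of LHX1, ONECUT1 and ONECUT2, and nuclei with markers of other classes were not excluded from them. Counts were summed per retina and tested with edgeR 4.0.16 (TMM, filterByExpr, quasi-likelihood test, 1 model of the 3 stages; adjusted p threshold 0.05) in R 4.3.3. The design asked for 10 H1 nuclei per retina, which leaves 1 retina per stage; after the numbers of nuclei were seen the limit was set to 3. Log2 ratios are medians over retinas after adding 0.5 counts. Shares were compared by exact permutation in Python 3.11.15, and scipy 1.17.1 gave the intervals. The procedure was tested on simulated data. The members and gene lists were chosen with earlier results of these data known. Named genes are the rule's genes, the 4 highest of each list, those called in a stage comparison (none), the 10 highest in H1, the 20 highest against all other nuclei and the 10 highest and 10 lowest against ISL1-rule nuclei; other genes of the lists and DGKH were named after their values were seen. Alternatives comprised DESeq2 1.42.0, other normalization and filters, other rules for nuclei and retinas, and leaving out each retina. Leaving out each retina for pooled levels and dropping the rule's genes from lists were chosen after seeing the data. Gene sequences and positions were not used here. Some genes are not reported here.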

Additional observations from a re-analysis of the deposited data

Results flagged for a closer look

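TLL1 was flagged because 1 of the 5 Mature retinas lay far from the others: Mature 2 stood at 1711 CPM in its 4 H1 nuclei and the nearest retina at 2473 CPM, a gap of 0.738 of the range of the group. This was 1 flag in 53 such tests of groups of retinas, of which about 5% are flagged by chance.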

How the results depend on the processing

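The counts of called genes, given as Mature against Infancy, Senile against Infancy and Senile against Mature, depended most on which features and retinas entered. With no filter on low counts they were 9, 21 and 5 of 18712 features. At least 5 H1 nuclei per retina left 1 senile retina, assumed to vary like the other groups, and gave 5, 5 and 2 of 1993: CRYGB, CRYGC, CRYGEliN, CRYBB1 and LINC-RPL31-44 lower in Mature, and KCNIP4, HS6ST3, FGF14, MIA3li3 and LINC-MRPL42-8 higher in that retina. With ONECUT-pair nuclei added, an alternative chosen after seeing the data, MIA3li3 was called in the first and second (1 and 1 of 2190). Leaving out 1 retina at a time gave 0 to 1, 0 to 4 and 0 to 2 calls. They were CRYGB without Senile 3 or Senile 4, RALYL, MIA3li3, FGF14 and HS6ST3 in the second and HS6ST3 in the third without Senile 3, and DGKH and MT-ND1li1 in the third without Infancy 5. The test against all other nuclei then gave 0 to 2, with calls without Mature 1, Mature 2, Infancy 4 or Senile 3. These genes were named after their values were seen, and the cause was not tested.

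Senile minus Infancy in log2 UMIs per H1 nucleus turned from -0.08 to 0.29 without mixed nuclei and ran from -0.42 to 0.18 over the omitted retinas, and Senile minus Mature turned from -0.47 to 0.17 without mixed nuclei; no p passed. Senile minus Infancy of TRPM3 turned to -0.041 with no filter (-0.012 to 0.186 over omitted retinas), that of MEGF11 to 0.031 with a term for the Cell Ranger version and 0.014 without mixed nuclei (-0.73 to 0.33), and that of TNR to -0.10 with ONECUT-pair nuclei added (-0.19 to 0.49). Senile minus Mature of DGKH stayed between -1.25 and -0.90 over omitted retinas, with an adjusted p of 0.0488 (-1.03) without Infancy 5 and up to 0.997 without Senile 4.

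The share of H1 among all nuclei kept its direction and its side of the threshold under 21 alternatives in each of the 3 comparisons. The share of H1 and ISL1-rule nuclei did so under 17, 16 and 17. The direction depended on the need for LHX1, however. H1 and ONECUT-pair nuclei together averaged 0.3395% ± 0.1132 in Infancy, 0.487% ± 0.2058 in Mature and 0.3572% ± 0.2978 in Senile (SD). ONECUT-pair nuclei alone averaged 0.2559%, 0.36% and 0.3056%. Senile was thus above Infancy in both, unlike for H1 nuclei alone, and no test of these shares is given. The sources used here do not say whether replicate numbers pair retinas. A figure of the study lists sex by replicate number, with 1 to 3 apart from 4 and 5, while the labels do not give it. Replicates 1 and 2 of every stage were counted with 6.1.2, and replicates 4 and 5 with 7.0.1. Number, sex as listed and version can therefore not be told apart here. With a term for sex no feature was called. Retinas of the same number had correlations of -0.05 to 0.543 (median 0.169, 11 pairs), those of other numbers a median of -0.024 (44 pairs), and 8 of 13 retinas correlated best with their own number. With a replicate block, 0, 0 and 0 features of 354 were called, and DGKH had -1.12 (adjusted p = 0.227).

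Some planned limits were not run: 20 H1 nuclei leaves too few retinas, and LHX1 at 2 or more UMIs allowed only Mature against Infancy. Depth limits the rest: 13 retinas held 3 to 21 H1 nuclei, and 3 of 10 tested 2-fold changes were found in the simulated data.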

Other observations

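LINC-FRMD8-1, a noncoding feature, took 20.4% of all H1 UMIs, 203900 CPM, and 163700 CPM of the UMIs of all other nuclei. It was above the other nuclei in 13 of 13 retinas, which spanned 164600 to 251200 CPM in H1 and 126000 to 212100 CPM elsewhere.

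Lens crystallin RNA was present in H1 nuclei of 3 retinas at about the level of the other nuclei. Summed over 15 features it stood at 22010 CPM in H1 and 24890 CPM in the other nuclei of Infancy 4, at 6284 and 5772 CPM in Infancy 5 and at 10010 and 10740 CPM in Mature 4. In the other 10 retinas it stayed at 220 CPM or less in H1 and 174 CPM or less elsewhere. Its part in the differences between stages that appeared without a filter on low counts was not tested.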
